A study of Mus musculus with 2 samples.

Results

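The Notch receptors, their ligands and their direct target genes were examined in the tooth and the skin of newborn mice. The 10 genes were Notch1, Notch2 and Notch3 (receptors), Jag1, Jag2, Dll1 and Dll4 (ligands), and Hes1, Hes5 and Hey1 (targets). They were taken as all non-control probes that carry 1 of these gene names on the array, which gave 13 of 55681 probes and 10 of 24323 named genes. Total RNA from P0 wild-type tooth and P0 wild-type skin was labelled with Cy3 and hybridised to 1 Agilent mouse expression array per tissue. Both groups were wild type, and neither was treated. The stage of P0 (day of birth) follows the labels. The study's methods name a stage 1 day later, and the number of animals behind each RNA was not given in the sources used here. The study describes the tooth as incisor germs that hold both epithelium and mesenchyme, and the skin as holding hair follicles.

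Notch signaling passes between neighbouring cells. A ligand of the Jagged or Delta-like family on one cell binds a Notch receptor on the next, the receptor is cut by an ADAM protease and then by γ-secretase, and its released intracellular domain joins the DNA-binding protein Rbpj in the nucleus to switch on target genes. Members of the Hes and Hey families, which encode basic helix-loop-helix repressors, are the best known of these targets. In skin the pathway is known for its part in the differentiation of suprabasal epidermis and of the hair follicle. In the tooth, Notch receptors and ligands are known from the enamel organ and the dental mesenchyme, and in all organs from blood vessels.

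The oligos that made the measurements are shown for the genes on which the results turn, namely both probes of Notch1 and Notch2, which differ in brightness, and the probes of Hes5 and Hey1, which gave the largest differences. Each probe has 60 bases, of which the first 30 are printed 5′ to 3′. The positions are those of the whole probe in mm9, the build in the file headers. Which exon or UTR a probe lies in was not analysed here.
Notch1, chr2:26319440-26319499 (minus strand): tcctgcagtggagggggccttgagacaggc
Notch1, other probe, chr2:26314630-26314689 (minus strand): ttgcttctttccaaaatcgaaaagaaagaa
Notch2, chr3:97953914-97953973 (plus strand): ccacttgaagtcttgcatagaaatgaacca
Notch2, other probe, chr3:97951233-97951292 (plus strand): tcttcaccacactctgcatctgactggtca
Hes5, chr4:154336347-154336406 (plus strand): acgatgatccttaaaggattcctttgtatg
Hey1, chr3:8663432-8663491 (minus strand): gatttgggctctaaaagtattgttttacag

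The Hes5 promoter is shown because Hes5 was the member with the largest difference toward skin. RefSeq promoters (GRCm38.p6, 250 bases before to 50 after each start) were held for 8 of the 10 genes, with 2 entries for Dll1. Hes1 and Hey1 had no entry. They were searched on both strands for TGGGAA and its reverse complement, the core that Rbpj is known to bind. Hes5 alone of the 8 held it, with 1 match on each strand, whose first letters stood at -226 (minus strand) and -82 (plus strand) relative to the start. The matches did not overlap, and both extended to GTGGGAA, which contains the core. Of 32851 promoters in the table, 25.6% held the core at least once, 3.79% held 2 or more, and 6.38% held the extended form. A match describes the sequence only. The 250 bases before the start (chr4:154960673-154960922, plus strand, GRCm38.p6) follow with the matches in capitals.
Hes5 promoter: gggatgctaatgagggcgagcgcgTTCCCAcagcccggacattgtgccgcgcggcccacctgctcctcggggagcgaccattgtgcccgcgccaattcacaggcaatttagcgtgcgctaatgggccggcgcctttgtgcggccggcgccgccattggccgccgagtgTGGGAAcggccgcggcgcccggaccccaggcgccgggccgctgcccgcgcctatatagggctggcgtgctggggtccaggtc

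Each value below is a processed intensity, written as signal, or its log2 after subtraction of the 75th percentile of the array (a signal of 428 in tooth and 276 in skin), written as log2 level. Differences are skin minus tooth on this log2 scale, so 1 stands for 2-fold. With 1 array per tissue no difference could be tested, no p-value was calculated, and no value has a replicate check. The error given with a difference is the SD from the error model of the extraction software, which covers the spots and leaves out animals, dissection, labelling and arrays. A probe is called detected when it was well above background. Each difference between tissues was taken within a probe. The summed signals given for marker lists add the same probes in both tissues.

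The marker lists followed the tissue labels. All 5 ameloblast genes, among them Amelx, Ambn and Enam, were detected in tooth and 0 of 5 in skin, whereas all 5 suprabasal epidermal genes, such as Lor and Krt10, were at least 2-fold higher in skin. The basal keratinocyte genes Krt5, Krt14 and Trp63 were detected in both tissues, and the list of 5 had a median difference of 0.66. All 6 skeletal muscle genes were at least 2-fold higher in skin (median 3.37), among them Myh8, Acta1 and Myh3. The 5 inner root sheath genes, among them Krt27, Tchh and Krt71, had a median of 7.75, and the 5 odontoblast genes, among them Dspp, Ibsp and Phex, a median of -8.01.

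All 10 Notch genes were detected in tooth and 9 in skin, Dll4 being the exception. Relative to the 75th percentile, skin had the higher level of Notch1, Notch3, Dll1, Hes1 and Hes5, and tooth of Notch2, Jag1, Jag2, Dll4 and Hey1. At least 2-fold differences were found for 3 genes toward skin (Hes5, Dll1 and Notch3) and for 3 toward tooth (Hey1, Dll4 and Notch2), or 30% in each direction. Among the 17409 named genes detected on at least 1 array, 14.2% passed 2-fold toward skin and 15.5% toward tooth. The median over the 10 genes was 0.09, against -0.04 over all named genes. The receptors, the ligands and the targets each held 1 gene past 2-fold toward skin and 1 toward tooth. This even split depended on the scaling. The spike-in transcripts, which were added in equal amounts by design, gave nearly equal signals on both arrays before scaling (7 of 8 within 0.05), and scaling to them shifts every difference by -0.63. Of the 10 genes, 1 (Hes5) was then past 2-fold toward skin and 4 (Hey1, Dll4, Notch2 and Jag2) toward tooth, while all named genes split into 1570 toward skin (9.02%) and 5682 toward tooth (32.6%). A shift to the array medians gave 2020 (11.6%) and 3500 (20.1%), and left 2 members toward skin (Dll1 and Hes5) and 3 toward tooth.

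**Figure D1:**
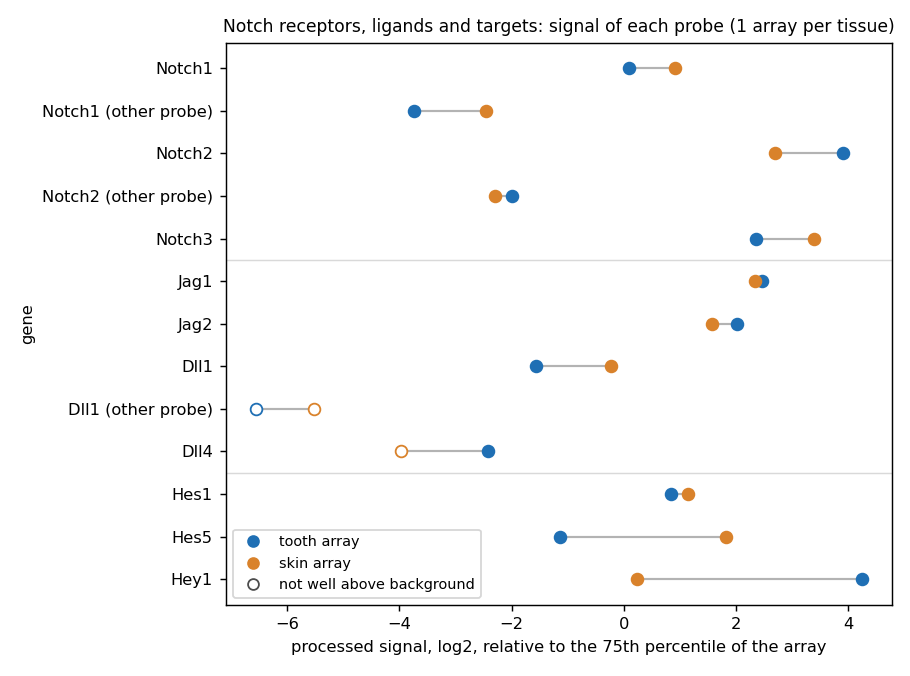
Signal of the 13 probes of the 10 genes on the tooth array (blue) and the skin array (orange), as log2 relative to the 75th percentile of each array, with open circles where a probe was not well above background. Points are to be compared within a row. Hey1 (4.25 and 0.24) and Hes5 (-1.14 and 1.82) lie farthest apart, in opposite directions.

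Of the 3 receptors, Notch1 and Notch3 lay toward skin and Notch2 toward tooth. Notch receptors are single-pass membrane proteins, and they share ligands and the downstream machinery. Notch1, the receptor most studied in epidermis, had a signal of 459 in tooth and 520 in skin, which gave log2 levels of 0.10 and 0.91. The difference was 0.81 ± 0.20 (software SD, n = 1 array per tissue), or 1.76-fold. Its other probe, which lies nearer to the end of the transcript, was much dimmer, at 31.9 in tooth and 50.3 in skin. It gave a difference of 1.29 ± 0.31. Both probes were thus higher in skin, and Notch1 passed 2-fold by the dimmer probe but not by the brighter one. For comparison, 3241 named genes had a pair of probes measured in both tissues. The differences of such a pair lay 0.26 apart in the median gene and 0.94 apart at the 90th percentile, and the pairs of Notch1 and Notch2 lay between these values.

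Notch2, which is known from mesenchyme and many other tissues, had a signal of 6445 in tooth and 1787 in skin. Its log2 level fell by 1.22 from tooth (3.91) to skin (2.69), with a software SD of 0.20. The other probe of Notch2 was dim in both tissues. Its log2 levels were -2.00 and -2.30, and its difference was -0.30 ± 0.25. The direction was the same for both probes, but the mean of their differences (-0.76) was within 2-fold. Notch3, a receptor known from the mural cells of blood vessels, had a signal of 2193 in tooth and 2894 in skin, and log2 levels of 2.36 and 3.39 (chr17:32257848-32257907, minus strand, mm9). Its difference of 1.03 ± 0.20 was just past 2-fold and came from 1 probe. It fell below 2-fold under normexp background correction (0.91), a median shift (0.78) and spike-in scaling (0.40). The difference of Notch3 exceeded that of Notch2 by 2.25 and that of Notch1 exceeded it by 2.03. A common shift between the arrays leaves these gaps unchanged. Both gaps were taken with the brighter probe of Notch2, and its other probe (-0.30) makes them smaller.

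Among the 4 ligands of the set, Jag1 and Jag2 were close between the tissues, and Dll1 and Dll4 were apart. Dll3, a Delta-like gene outside the set, differed by 0.02, and by 0.92 with its other probe. Jag1 had a signal of 2369 in tooth and 1397 in skin (chr2:136907433-136907492, minus strand), which after scaling was a difference of -0.13 ± 0.20. Jag2 had a signal of 1740 in tooth and 827 in skin (chr12:114146887-114146946, minus strand), with a difference of -0.44 ± 0.20. Both stayed within 2-fold. Under spike-in scaling Jag1 was at -0.76 and Jag2 at -1.07, so Jag2 then passed 2-fold toward tooth.

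Dll1, a ligand known from basal keratinocytes and from the early somites, was measured by a probe printed 10 times on each array (chr17:15504623-15504682, minus strand). On the tooth array the 10 spots ranged from 128 to 159 with a median of 148. On the skin array 9 spots, after 1 outlier had been left out, ranged from 219 to 260 with a median of 237. The scaled levels were -1.57 ± 0.11 in tooth (SD among 10 spots) and -0.22 ± 0.08 in skin (SD among 9 spots). No spot of the tooth array reached the lowest spot of the skin array. The difference of 1.35 was larger than the spread between spots (0.13 for a pair of single spots), although spots of 1 array share the same RNA and are not replicates of a tissue. The value stayed past 2-fold under each alternative except spike-in scaling (0.72). The filters could not change it, since this probe was detected on both arrays. A further Dll1 probe, designed to another transcript (chr17:15513726-15513785, minus strand), was detected in neither tissue, and no fold is given for it. The mean of probes (1.19) includes this undetected probe.

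**Figure D2:**
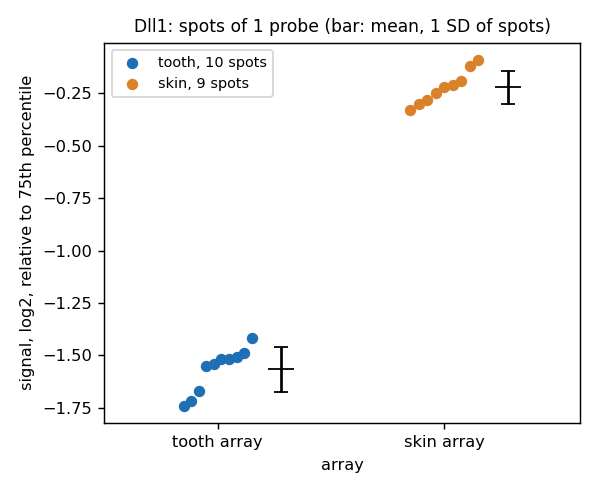
Log2 signal of the repeated spots of the Dll1 probe on each array, relative to the array's 75th percentile, sorted by value, with the mean and 1 SD among spots beside the points. The 10 tooth spots lie between -1.74 and -1.42 and the 9 skin spots between -0.33 and -0.09, with no overlap.

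Dll4, a ligand of arterial and sprouting endothelium, was dim. Its signal was 79.3 in tooth and 17.6 in skin (chr2:119160779-119160838, plus strand), and the skin value was not well above background. Set against the lowest signal so called on the skin array (-3.73), Dll4 was 2.46-fold higher in tooth. This is no strict limit, since some probes above that signal were not called detected either. Under normexp background correction its difference was only -0.27, so the size of this result depends on how a dim signal is treated. Vessel markers were also higher in tooth. Of 10 endothelial genes, all were detected in tooth and 9 in skin (all but Tek), and 8 were at least 2-fold higher in tooth, with a median of -2.12. The other 2 were higher in skin, within 2-fold. The summed scaled signal of the list (in units of the 75th percentile) was 70.9 in tooth and 48.8 in skin. Most of the skin sum came from the brighter Kdr probe (log2 level 4.78 in tooth and 5.21 in skin). Egfl7 (-1.91) and Cldn5 (-1.23) were higher in tooth, whereas the probes of Kdr gave 0.43 and -2.19, and the sign of the first turned under spike-in scaling (-0.20). The part of these vessel cells in the value of Dll4 was not tested. In RNA of a whole tissue, fewer cells of a type and less RNA per cell cannot be told apart.

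The target genes held the largest differences of the family, and they went in opposite directions. Hey1, a repressor induced by Notch in vessels, bone-forming cells and other mesenchyme, had a signal of 8160 in tooth and 326 in skin. Its log2 levels were 4.25 and 0.24, and the difference of -4.02 ± 0.21 made it 16.2-fold higher in tooth. Only 234 of the 17409 named genes (1.34%) lay as far toward tooth. Hes5, a target best known from neural progenitors, had a signal of 194 in tooth and 975 in skin, and log2 levels of -1.14 and 1.82. It was 7.8-fold higher in skin (difference 2.96 ± 0.21), and 822 named genes (4.72%) lay as far toward skin. The differences of Hes5 and Hey1 were 6.98 apart. Each was measured by 1 probe. Their directions and their place past 2-fold were the same under all 9 alternatives, with ranges from -4.65 to -3.81 for Hey1 and from 2.33 to 2.98 for Hes5. The filters and the mean of probes could not change these values, since each gene had 1 probe and was detected on both arrays. Hes1, the most widely expressed target, was nearly equal. Its signal was 767 in tooth and 610 in skin (chr16:30067820-30067879, plus strand), and its difference was 0.30 ± 0.20. Under spike-in scaling the sign of Hes1 turned (-0.33).

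**Figure D3:**
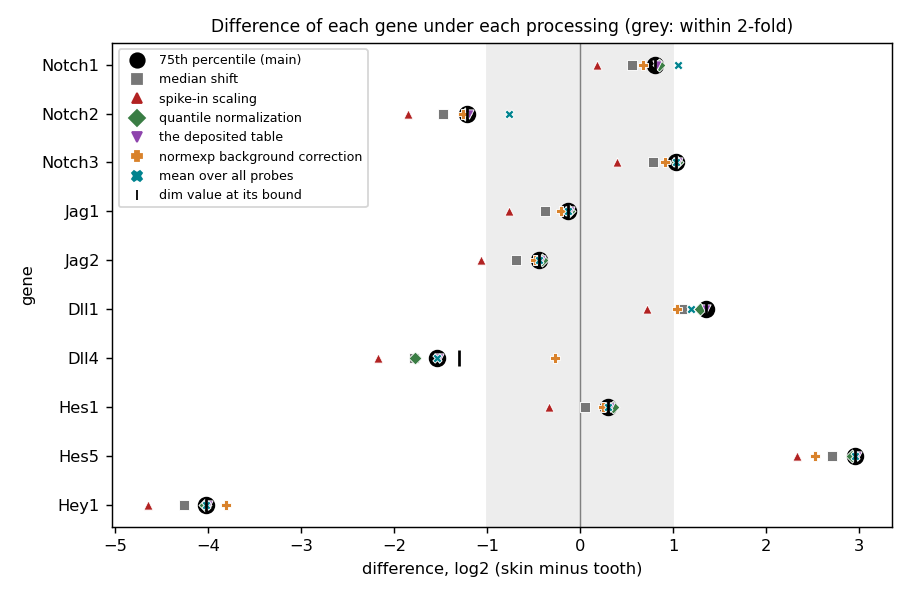
Difference of each gene (log2, skin minus tooth) with the main scaling (black circles) and under alternatives, with a grey band over differences within 2-fold. Analyses with no filter on dim probes, and with the genes detected on both arrays, are not drawn, since they leave the value of each gene they keep as it is (the second leaves out Dll4). Hey1 and Hes5 stay outside the grey band under each setting, whereas Notch1, Notch2, Notch3, Jag2, Dll1 and Dll4 cross its edge under at least 1.

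Mural cells, which surround vessels and are known to express Notch3, were examined beside it. Of 8 mural genes, all were detected on both arrays, 6 were at least 2-fold higher in tooth, and the median was -2.46. The summed scaled signal of the list was 74.8 in tooth and 22.1 in skin. Tagln (-1.72) and Acta2 (-2.74) were higher in tooth, and Cspg4 differed by 0.23, a value whose sign turned when scaled by the median or by the spike-ins (-0.40). Notch3 lay on the skin side of 0 while most of this list lay on the tooth side. The mural list moved in the direction of Hey1, and the part of these cells in the values of Notch3 and Hey1 was not tested. The endothelial list given above lay toward tooth as well. So did the ameloblast list, with 5 of 5 genes detected in tooth and 0 in skin and sums of 2153 and 0.0954. A sum counts an undetected gene at its measured value, which is not a level above background. The odontoblast list moved in the direction of Hey1 too, with 5 of 5 genes detected in tooth and 1 in skin and a summed scaled signal of 308 and 0.505. The suprabasal epidermal list moved in the direction of Hes5, with 4 of 5 genes detected in tooth (all but Ivl) and 5 in skin and a summed scaled signal of 6 and 3760. The inner root sheath list did so as well, with 4 of 5 detected in tooth (all but Krt25) and 5 in skin and sums of 3.07 and 770. The skeletal muscle list also lay toward skin, with 5 of 6 detected in tooth (all but Myog) and 6 in skin and sums of 8.79 and 88.3. Of the 5 basal keratinocyte genes, 1 was past 2-fold toward skin (Krt14), and their sums were 551 and 1061. Their part in the values of Hey1 and Hes5 was likewise not tested.

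The rest of the pathway was then described by 45 further genes, of which 44 were detected on at least 1 array (Hes3 was not). Toward skin 5 were at least 2-fold apart and toward tooth 5, or 11.4% in each direction, below the 14.2% and 15.5% of all named genes. The median was -0.10. The machinery that all Notch signals share differed little with the main scaling. All 8 genes of receptor cleavage, which are the ADAM proteases and the γ-secretase subunits, and all 8 genes of the nuclear complex stayed within 2-fold. Their differences ran from -0.89 to 0.21 for cleavage and from -0.62 to 0.42 for the nuclear complex. Under spike-in scaling, however, 18 of the 44 genes passed 2-fold toward tooth, where 32.6% of all named genes did so. In these lists they were Adam10 (-1.38), Psen2 (-1.46), Aph1b (-1.52), Maml1 (-1.02) and Maml2 (-1.25), which are named here after their values were seen. Rbpj, the DNA-binding protein of the pathway, differed by 0.07, from signals of 959 (tooth) and 648 (skin). A second probe gave 0.60. The sign of the first turned when scaled by the median or by the spike-ins (-0.57).

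The 10 genes past 2-fold lay mostly among receptors, ligands, sugar-modifying enzymes and the Hes, Hey and feedback genes. Notch4, the receptor of endothelium, had a signal of 522 in tooth and 58.9 in skin, which made it 5.72-fold higher in tooth. Its difference of -2.52 became -1.57 under normexp correction. Dner, a Notch-binding protein best known from neurons, had 333 in tooth. Its skin spot was too dim to be called detected. Set against the lowest detected signal on the skin array, tooth was 10.3-fold higher (a difference of -3.37). Under normexp correction the difference was -2.13, which is smaller than this value, so the size depends on how a dim signal is treated. Dlk2, an atypical ligand, was at 534 and 712, a difference of 1.05 toward skin by its brighter probe and of 0.46 by the other. Dlk2 was within 2-fold with the mean of its probes (0.75), under normexp correction (0.91), a median shift (0.80) and spike-in scaling (0.42).

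The fringe enzymes add sugars to Notch and alter its response to each ligand. Mfng lay toward tooth and Lfng toward skin, and Rfng was within 2-fold (-0.21, and -0.75 by its other probe). Mfng had 946 in tooth and 141 in skin, and was 4.34-fold higher in tooth, with -1.95 from its other probe. Lfng had 196 in tooth and 271 in skin. It lay 1.10 toward skin, and was within 2-fold under normexp correction (0.87), a median shift (0.85) and spike-in scaling (0.47). Poglut1, which adds glucose to the receptor, was at 584 and 185, a difference of -1.03 that was within 2-fold under normexp correction (-0.86).

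A further list held other Hes, Hey and feedback genes, whose induction by Notch was not tested. Hes2 had 76.2 in tooth and 419 in skin, and was 8.52-fold higher in skin. Its difference of 3.09 became 2.31 under normexp correction. Nrarp, a target that dampens Notch signaling, had 214 in tooth and 556 in skin, and was 4.04-fold higher in skin. Both were on the side of Hes5 under all 9 alternatives, of which the filters and the mean of probes could not change them. A further 3 genes of this list were within 2-fold, all on the tooth side. Of the 6 genes of the list detected on at least 1 array, 2 were higher in skin and 4 in tooth, and the median was -0.56. Hey2 was detected in tooth only, at a signal of 23.4, which lay so near to background that its bound gave no fold, and normexp correction turned its sign (0.15). Dtx2, a ubiquitin ligase of the pathway, had 3310 in tooth and 7036 in skin by its bright probe, and differed by 1.72. Its other probe was detected in neither tissue, and the mean over both probes was 0.85.

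**Figure D4:**
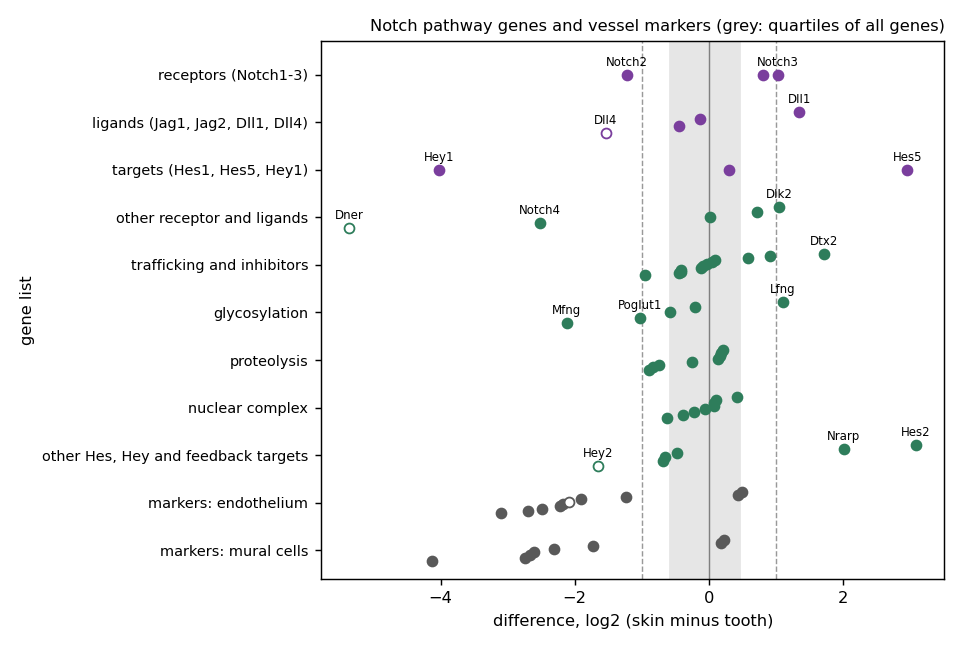
Difference of each detected gene (log2, skin minus tooth) by list, with members in purple, other pathway genes in green and vessel markers in grey. Open circles were not well above background in skin and are drawn at their measured value. The grey band spans the quartiles of all named genes (-0.58 to 0.47) and the dashed lines mark 2-fold. The cleavage and nuclear lists stay inside the dashed lines, while Hey1, Dner and Notch4 lie far toward tooth and Hes2, Hes5 and Nrarp toward skin.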

How the data were processed

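P0 wild-type tooth and skin RNA was measured on 1 array each. The authors deposited a processed intensity for each spot, made (per the file headers) with Agilent Feature Extraction (10.7.3.1) by background subtraction and detrending, with surrogates for very dim values. The study's methods named GeneSpring, a percentile shift and the removal of very dim probes, with no order given. A ratio per spot was deposited too, equal to the processed intensity over 1 factor per array (431 for tooth, 275 for skin).

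Outlier spots were left out, spots of a probe were averaged as log2, and the 75th percentile of each array's non-control probes was subtracted. A probe was detected when over 50% of its spots were well above background (56.7% of probes in tooth, 52.5% in skin). The number of arrays limits the precision. The brightest probe stood for a gene, as the bound for a dim one the lowest detected signal was used, and 27235 of 33184 named probes took their name from RefSeq by accession. Among probes with at least 8 spots, the median SD among spots was 0.08 in tooth and 0.09 in skin. Alternatives were a median shift, spike-in, quantile and deposited-table scaling, normexp (limma 3.58.1, offset 50), the mean of a gene's probes and 3 filters. Python 3.11.15 was used, and the steps were checked on simulated data. All members, pathway genes past 2-fold, Rbpj, Notch4 and up to 3 of the brightest markers per list were to be named. Members and lists were chosen with earlier results of these data known. Single-array levels allow no ranking of other genes by likeness.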

Additional observations from a re-analysis of the deposited data

How the results depend on the processing

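Of 89 values of single Notch genes under the 9 alternatives, 88 kept their sign (the exception was Hes1 under spike-in scaling), and 64 moved by no more than the software error. The others moved most often under spike-in scaling (10), which shifts the median gene by -0.63, and under a median shift (9), which shifts it by -0.25. The counts of 88 and 64 include values that could not move. The filters leave most values as they are, and the mean of probes changes only genes with 2 probes. The deposited table differs from the main scaling only by a constant per array. The count of members at least 2-fold higher in skin changed from 3 to 1 under spike-in scaling, and was 4 with the mean of probes, where Notch1 passed 2-fold. Among the other pathway genes, the count toward skin changed from 5 to 3 under spike-in scaling, a median shift, normexp and the mean of probes, where 9.02%, 11.6%, 10% and 14.2% of all named genes lay so. The count toward tooth became 18 under spike-in scaling, 8 under a median shift, 3 under normexp and 3 over genes detected on both arrays. With dim values at their bound it was 4. The shares of all named genes moved in the same way, to 32.6%, 20.1%, 9.6%, 12.3% and 13.3% toward tooth. The pathway median was -0.73 under spike-in scaling and -0.35 under a median shift.

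Marker medians moved without a change of sign. Under spike-in scaling they were 0.03 for basal epithelium, -2.76 for endothelium, 7.12 for the inner root sheath, -3.09 for mural cells, 2.74 for skeletal muscle and 8.48 for suprabasal epidermis. Under a median shift they were 0.41, -2.37, 7.50, -2.71, 3.12 and 8.86 in the same order. Normexp gave -9.52 for ameloblasts, -1.54 for endothelium, 6.42 for the inner root sheath, -1.87 for mural cells, -5.20 for odontoblasts and 2.85 for skeletal muscle. With dim values at their bound the ameloblast median was -11.27 and the odontoblast median -6.79. Over genes detected on both arrays the inner root sheath median was 7.09 and the suprabasal median 9.52, and the mean of probes gave 3.08 for skeletal muscle. A scaling shifts all values by its construction, and the offset of 50 added under normexp draws dim signals closer together by construction. Bounds, the mean of probes and the filter likewise change values or gene sets by their definition. The share of the offset in each normexp change was not tested. No paired analysis was possible because each tissue had 1 array, and no array could be left out. Signal over background limits Dll4, Hey2, Dner and the dim probes of Notch1 and Notch2.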
